A study of Danio rerio with 6 samples.

Results

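The genes described here are 10 transcripts of the ATM response to DNA double-strand breaks, taken by name from a table of 32520 zebrafish genes: mre11a, rad50, nbn, atm, chek2, mdc1, rnf8, rnf168, lig4 and parp1. Each matched 1 Ensembl gene, mre11a by its alias MRE11 and the others by symbol. All 10 were counted in every library, at 12 to 1413 reads, so each could be tested. Heads of embryos (Danio rerio) aged 2 days post fertilization were sequenced for RNA. The mutant group held 3 libraries of slbp1-/- heads of the line named rw440 in the titles, and the sibling group 3 libraries of wildtype heads of that line, at the same age and with no treatment stated. Neither the lesion of the allele nor how many heads, clutches or embryos went into a library is described, so p-values cover only the variation among these 6 libraries, part of which may be technical.

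When both strands of DNA are cut, the Mre11, Rad50 and Nbn proteins bind the ends as 1 complex and recruit the ATM kinase, which phosphorylates the histone variant H2A.X beside the break. Mdc1 binds the phosphorylated histone, the ubiquitin ligases Rnf8 and Rnf168 mark the surrounding chromatin, and Chek2 carries the signal to the cell cycle machinery, while Parp1 senses breaks on its own and Lig4 seals ends in non-homologous end joining. These roles are known mostly from mammalian cells and yeast. Much of the pathway is switched on by modification of existing proteins, so a transcript level is not a measure of its activity. The mutated gene encodes the stem-loop binding protein, which binds the 3' end of histone messenger RNAs made during DNA replication.

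Libraries held between 3421961 and 5395071 counts. The labels name the mutated gene slbp1, which was read here as the gene annotated slbp (ENSDARG00000100558). Its transcript was present in all libraries, at 144 to 183 CPM in mutants and 87.2 to 104 CPM in siblings. It was called higher in mutants, by 0.81 on the log2 scale (edgeR adjusted p = 0.00295), and as the lesion is not described its level does not test the genotype labels. CPM are counts scaled to a common library total after TMM scaling, which corrects for differences in RNA composition. Groups separated on the first principal component, which carried 69.4% of the variance, and mutant replicate 3 lay apart from the other mutants on the second. Brain and eye patterning genes summed to 735 to 1141 CPM over all libraries, and posterior trunk genes to at most 1.89 CPM.

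In mutant heads 6 of the 10 members rose: chek2, mre11a, rad50, rnf168, parp1 and atm. They passed an adjusted p of 0.05 in a quasi-likelihood test (edgeR) over 15561 genes. Of all tested genes 12.9% were higher by the same rule. None of the members was lower (0 calls with edgeR, DESeq2 or limma-voom, and 0 at an unadjusted p under 0.05), against 12.8% of all genes. The median log2 fold change of the members, mutant minus sibling, was 0.67, and that of all tested genes 0.00. With 7 members, the 6 named and nbn, every mutant library was above every sibling library, which held for 21.8% of all tested genes. In bulk heads, more cells of a type and more RNA per cell cannot be told apart. Scaling by total counts alone gave 1095 higher and 2787 lower genes in place of 2015 and 1989, with the median gene at -0.26 on the log2 scale. The call on atm was at the threshold and the call on chek2 depended on single libraries, so 4 members (mre11a, rad50, rnf168 and parp1) were called under all 16 alternatives tried.

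**Figure D1:**
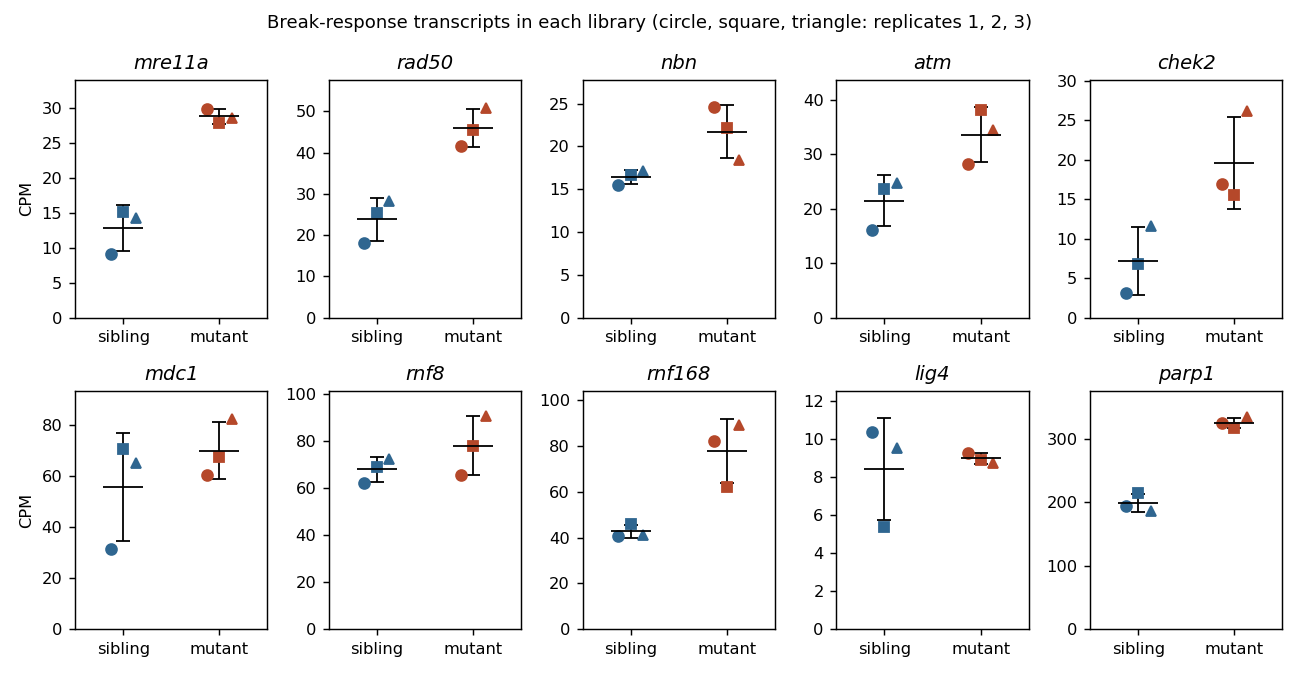
CPM of each member (vertical axes from 0) in the 3 sibling and 3 mutant libraries; points are libraries, the line and bar are the mean and SD. The groups are apart for mre11a, rad50, nbn, atm, chek2, rnf168 and parp1 and overlap for mdc1, rnf8 and lig4.

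Among the genes of the end-binding complex, mre11a and rad50 rose and nbn was not called. The nuclease gene mre11a (ENSDARG00000105014) had 29.9, 27.8 and 28.6 CPM in mutant replicates 1 to 3 and 9.06, 15.1 and 14.2 CPM in siblings. The mutant libraries had a CV (SD over mean) of 3.6%, closer together than counting error alone would give (8.98%). The lowest mutant was well above the highest sibling. Its means were 28.8 ± 1.04 and 12.8 ± 3.27 CPM (SD, n = 3). It rose by 1.15 ± 0.24 (SE) on the log2 scale, at an edgeR adjusted p of 0.00376.

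The gene rad50 (ENSDARG00000038917), for the coiled-coil ATPase that tethers the ends, had 41.7, 45.4 and 50.8 CPM in mutants and 18.1, 25.3 and 28.2 CPM in siblings, again without overlap. It rose by 0.94 ± 0.20 (SE) on the log2 scale, at an edgeR adjusted p of 0.00489. The gene nbn (ENSDARG00000040303), for the subunit that contacts ATM, had 24.6, 22.1 and 18.4 CPM in mutants and 15.5, 16.6 and 17.1 CPM in siblings. The groups did not overlap, but the lowest mutant and the highest sibling were close. The log2 difference of 0.40 had a 95% interval from -0.08 to 0.87 and the edgeR adjusted p was 0.2, so a change of up to 1.83-fold was within its error.

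Both kinase genes were higher, chek2 by the larger estimate and atm by a margin that barely passed. The atm gene (ENSDARG00000002385), for the kinase that starts the signal, had 28.3, 38.1 and 34.5 CPM in mutants and 16.0, 23.6 and 24.8 CPM in siblings. All mutants were above all siblings, and sibling replicate 1 was the lowest library. The means were 33.6 ± 4.98 and 21.5 ± 4.73 CPM (SD, n = 3). The log2 difference was 0.64 ± 0.22 (SE), and the edgeR adjusted p was 0.0489. That call was lost in 13 of the 16 alternatives. They included limma-voom (adjusted p = 0.0503), DESeq2 (0.0573) and each library left out in turn, among which the adjusted p reached 0.175 without sibling replicate 1. Over the alternatives the adjusted p of atm ran from 0.013 to 0.276, leaving aside the stricter threshold, and its estimate stayed above 0, between 0.38 and 0.75.

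The checkpoint kinase gene chek2 (ENSDARG00000025820), which acts downstream of ATM, had 16.9, 15.5 and 26.2 CPM in mutants and 3.11, 6.82 and 11.6 CPM in siblings. The groups did not overlap, though both were wide. Its log2 fold change was the highest of the members, 1.41 ± 0.39 (SE), at an edgeR adjusted p of 0.0193 and a 95% interval from 1.48-fold to 4.75-fold. Counts were low, from 12 in sibling replicate 1 to 111 in mutant replicate 3. Counting error alone would give a CV of 16.1% among siblings of this mean count, and the observed CV was 59.3%. The call was lost without mutant replicate 3 (adjusted p = 0.0613), without sibling replicate 1 (0.0575), without sibling replicate 2 (0.0672) and with scaling by total counts alone (0.0549). Over the alternatives its adjusted p ran from 0.000155 to 0.0672.

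**Figure D2:**
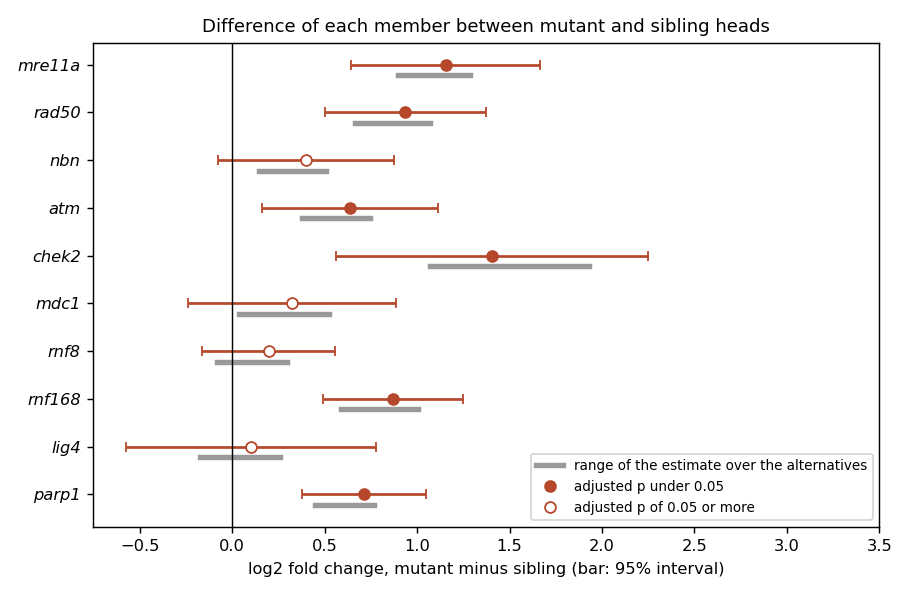
Log2 fold change of each member, mutant minus sibling, with its 95% interval (horizontal axis); filled points passed an edgeR adjusted p of 0.05, and the grey bar spans the estimates under the alternatives. The intervals of nbn, mdc1, rnf8 and lig4 cross 0, and those of the other 6 members lie above it.

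In the chromatin arm, rnf168 rose, while mdc1 and rnf8, which act before it, were not called. The adaptor gene mdc1 (ENSDARG00000086764) had 60.2, 67.3 and 82.2 CPM in mutants and 31.3, 70.4 and 64.9 CPM in siblings. Sibling replicate 1 was far below the other siblings, which were within the range of the mutants. The log2 difference was 0.32, with a 95% interval from -0.24 to 0.89, and the edgeR adjusted p was 0.391. Without sibling replicate 1 the log2 difference was 0.04, and mdc1 was not called under any of the 16 alternatives.

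The gene rnf8 (ENSDARG00000044949), for the first ubiquitin ligase at the break, had 65.5, 77.6 and 90.5 CPM in mutants and 62.1, 69.0 and 72.4 CPM in siblings. The groups overlapped. Its log2 difference of 0.20 had a 95% interval from -0.16 to 0.56, so a rise above 1.47-fold lay outside it. The edgeR adjusted p was 0.412, and the estimate turned to -0.08 with total counts alone.

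The gene rnf168 (ENSDARG00000112483), for the ligase that extends the mark on H2A histones, had 82.4, 62.3 and 89.3 CPM in mutants and 40.9, 45.9 and 41.2 CPM in siblings. The siblings lay close together and every mutant was above them. It rose by 0.87 ± 0.18 (SE) on the log2 scale, at an edgeR adjusted p of 0.00347, the lowest among the members.

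Of the genes that act on the ends outside the kinase cascade, parp1 rose and lig4 was not called. The poly(ADP-ribose) polymerase gene parp1 (ENSDARG00000019529) had 325, 317 and 334 CPM in mutants and 194, 214 and 187 CPM in siblings. It was the most counted member, with CVs of 2.59% in mutants and 7.16% in siblings, where counting error alone would give 2.67% and 3.17%. It rose by 0.71 ± 0.16 (SE) on the log2 scale, at an edgeR adjusted p of 0.00529 and an interval from 0.38 to 1.05 on that scale.

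The ligase gene lig4 (ENSDARG00000060620) had 9.26, 8.90 and 8.74 CPM in mutants and 10.4, 5.35 and 9.52 CPM in siblings. The mutant values lay between the sibling values. The log2 difference was 0.10, with a 95% interval from -0.58 to 0.78 and the edgeR adjusted p was 0.848. At 29 to 55 reads per library, changes between 0.671-fold and 1.72-fold remained within the error, and the estimate turned to -0.15 without sibling replicate 2 and to -0.18 with total counts alone.

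A call for 1 member of a complex and none for another does not show that their changes differ, and the intervals of nbn and rad50, for example, overlapped. Ratios of counts within a library, which need no scaling between libraries, were therefore computed for 6 pairs, picked with the counts known. The count of mre11a per nbn count was 1.22, 1.26 and 1.55 in mutants and 0.583, 0.911 and 0.828 in siblings, so the groups were apart. The rad50 to nbn ratio was 1.70, 2.05 and 2.76 in mutants and 1.17, 1.52 and 1.65 in siblings, apart by little. In contrast, mre11a per rad50 overlapped, at 0.563 to 0.717 in mutants and 0.500 to 0.599 in siblings.

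The ratio of rnf168 to rnf8 was 1.26, 0.803 and 0.987 in mutants and 0.658, 0.666 and 0.569 in siblings. These groups did not overlap. For mre11a to nbn, rad50 to nbn and rnf168 to rnf8, the exact two-sided permutation test gave p = 0.1, the smallest value that 3 against 3 libraries allow, and 0.2 after Benjamini-Hochberg adjustment over the 6 ratios. This exact test cannot reach 0.05 with 3 libraries a group. Each of these 3 pairs set a called member against one not called, with the counts known. The test and its adjustment therefore only restate that the groups were apart, and add no separate support for unequal changes. The parp1 to lig4 ratio overlapped because sibling replicate 2 had the highest value, 40.1, against 35.0 to 38.2 in mutants (exact permutation p = 0.4). The chek2 to atm ratio overlapped as well, at 0.407 to 0.760 and 0.194 to 0.469 (exact permutation p = 0.2). Of all single genes tested, 21.8% had every mutant above every sibling and 21.8% every mutant below. The share of gene pairs with ratios apart was not computed, so 3 of 6 has no background beside it.

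**Figure D3:**
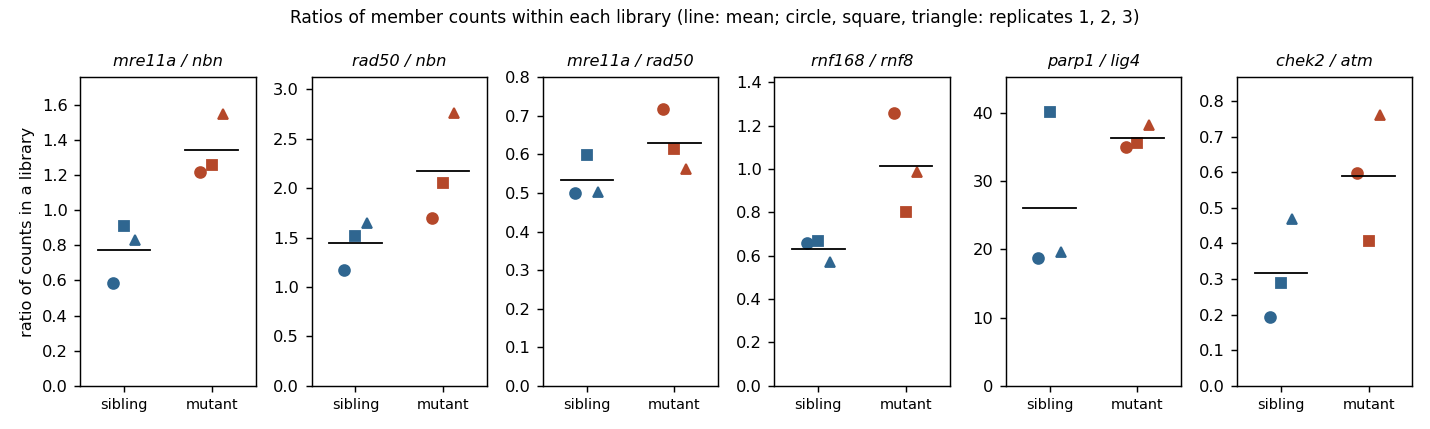
Ratio of the counts of 2 members within each library (vertical axes from 0) for 6 pairs; points are libraries and lines are group means. The groups are apart for mre11a to nbn, rad50 to nbn and rnf168 to rnf8, and overlap for the other 3 pairs. The pairs were picked with the counts known, and the share of all gene pairs that are apart was not computed.

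Within each group 1 library was the lowest or the highest for many members, though not for all. These are ranks only and include near ties. Examples are rnf168 in sibling replicates 1 and 3 (40.9 and 41.2 CPM) and parp1 in mutants (317 to 334 CPM). Sibling replicate 1 had the lowest CPM of the siblings for 8 of the 10 members, all but lig4 and parp1, and it was the lowest sibling for 35.4% of all tested genes. Mutant replicate 3 had the highest CPM of the mutants for 6 members (chek2, mdc1, rnf8, rnf168, rad50 and parp1), against 37.7% of all tested genes. It had the lowest for 2, nbn and lig4, against 38.1% of all tested genes. The summed level of the members was 401 CPM in sibling replicate 1 and 492 and 471 CPM in the other siblings. In mutants it was 683, 682 and 763 CPM, and parp1 made up 45.8% of it on average.

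Transcripts of DNA replication followed the same order of libraries. The replication list held 30 genes, 29 of them tested, such as the helicase subunit genes mcm2 to mcm7 and pcna. All 30 together summed to 3412 CPM in sibling replicate 1 and to 4775 and 4262 CPM in the other siblings. Mutants had 10080, 9100 and 13400 CPM, highest again in replicate 3. The part of this in the levels of the members was not tested.

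Relative to the replication transcripts most members were lower in mutants, as most genes were. This scaling was chosen after the values of the members were seen. Per 1000 counts of the replication list, all members together had 67.8, 74.9 and 56.9 counts in mutants and 117, 103 and 110 in siblings. On this scale 8 of the 10 members were lower in every mutant than in every sibling, as were 82.2% of all tested genes, so this count is near the background. The nuclease gene mre11a overlapped, at 2.13 to 3.06 in mutants and 2.65 to 3.33 in siblings, and so did chek2, at 1.68 to 1.96 and 0.910 to 2.72. The lig4 values went furthest down, to 0.849 ± 0.174 from 2.13 ± 0.961 (SD, n = 3), and the rnf8 values to a mean of 7.26 from 16.5.

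**Figure D4:**
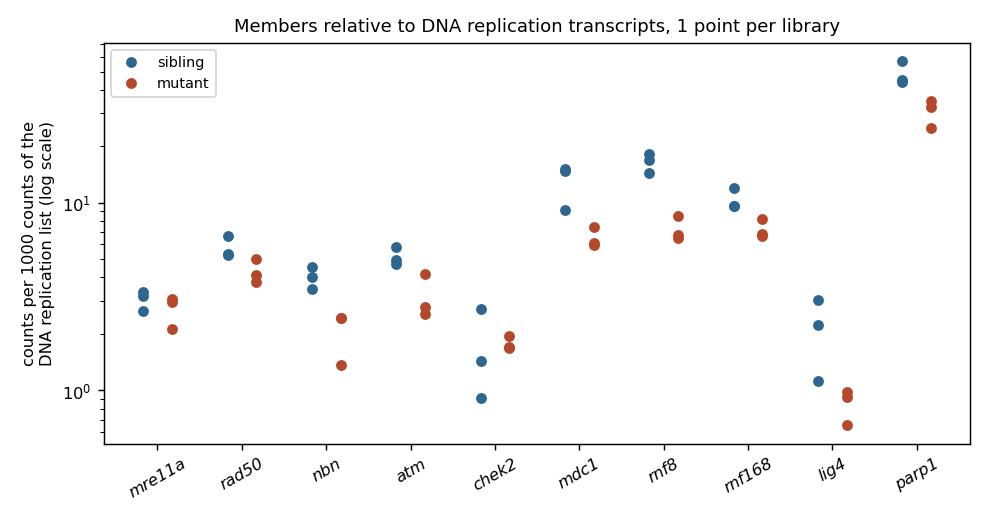
Counts of each member per 1000 counts of the DNA replication list (log scale), 1 point per library. Mutant points lie below all sibling points for 8 members and overlap with them for mre11a and chek2.

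Some of the chromatin genes that work beside the members at the break rose, and the others were not called. Of 18 tested factors of the flanking chromatin 6 rose (12.9% of all tested genes did) and 0 fell (12.8% did), by edgeR's quasi-likelihood test. Their median log2 fold change was 0.09. Every mutant was above every sibling for 6 of them and below for 4, against 21.8% of all tested genes each way. The 4 below, a count near that share, were brcc3, babam1, ube2na and shld2. Of these shld2 had the lowest log2 difference of the list, -1.23 (edgeR adjusted p = 0.0814, named after its values were seen). No chromatin factor was called lower with DESeq2 or limma-voom either (0 each), and 2 were lower at an unadjusted p under 0.05. In lists of this size 0 lower is not far from 12.8%. With a library left out, 4 to 6 of the chromatin factors rose. The H2A.X gene h2ax (ENSDARG00000029406), whose product ATM phosphorylates, had 904, 442 and 679 CPM in mutants and 119, 98.8 and 105 CPM in siblings. Every mutant was several times above the siblings. The log2 difference was 2.65 ± 0.25 (SE), and the edgeR adjusted p was 1.31e-05. Reads of near-identical histone copies may be shared between genes, so its level is uncertain. A second gene of that variant, h2ax1, named after its values were seen, had 594, 1050 and 1542 CPM in mutants and 490, 585 and 428 CPM in siblings. Its mutant values were wide but above all siblings, and it rose by 1.08 on the log2 scale (edgeR adjusted p = 0.0184). In mammals H2A.X messages can end in the same stem-loop as replication histone messages.

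The 6 risers also included paxip1 (0.86), for a scaffold that works at breaks in mammals, and bard1 (1.81), for the partner of BRCA1. Also among them were rif1 (0.71 on the log2 scale), for a factor that limits resection, and tp53bp1 (0.68). The groups overlapped for tp53bp1 (edgeR adjusted p = 0.0422), which was named after its values were seen. Of the deubiquitinating complex that reads the Rnf8 and Rnf168 mark, the subunit genes that were matched by symbol were not called. Here abraxas1, brcc3, babam1 and babam2 had log2 differences of 0.60, -0.71, -0.31 and 0.03, named for their role after their values were seen. Another subunit gene, uimc1, was not matched and so not tested. The E2 genes ube2na and ube2nb, partners of both ligases, had -0.28 and 0.15 and were not called, and were named for the same reason.

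In end joining, 6 of 14 tested genes rose (12.9% of all tested genes did) and 0 fell (12.8% did), with a median log2 fold change of 0.74. None of them was lower with DESeq2 or limma-voom (0 each), or at an unadjusted p under 0.05 (0). The scaffold gene xrcc4, whose product binds Lig4, went from 10.9 to 17.9 CPM in siblings to 27.4 to 37.8 CPM in mutants, a log2 fold change of 1.19. The polymerase gene polq, of the alternative end-joining route, rose by 1.39 on the log2 scale. The Ku subunit gene xrcc6 rose by 0.70 and the phosphodiesterase gene tdp1 by 0.77 (edgeR adjusted p = 0.0234 and 0.024). Both calls were lost with some library left out. The other Ku subunit gene, xrcc5, had 0.79 with overlapping groups and was not called (edgeR adjusted p = 0.0603, named after its values were seen). The end-joining kinase gene prkdc and the nuclease gene dclre1c, like lig4, were not called (0.14 and 0.01 on the log2 scale, named after their values were seen). The count of risers was 2 without sibling replicate 1 and with total counts alone, 3 without mutant replicate 1, mutant replicate 3, sibling replicate 2 or sibling replicate 3, and 6 without mutant replicate 2.

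Beside parp1, 3 of 9 genes of poly(ADP-ribose) metabolism and single-strand repair rose and 0 fell by edgeR's quasi-likelihood test. The shares of all tested genes were 12.9% and 12.8%, and the list median was 0.28. In this list DESeq2 and limma-voom gave 0 lower as well, and 1 gene was lower at an unadjusted p under 0.05. The risers were parp2, a second polymerase of the same kind (0.96), hpf1, the cofactor that directs both to serine (1.06), and xrcc1, the scaffold they recruit (0.74 on the log2 scale). The ligase gene lig3, partner of Xrcc1, had a log2 difference of 0.08 and was not called (named after its value was seen).

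Among genes for the maturation, feedback and output of the kinase, 3 of 8 rose and 0 fell by edgeR's quasi-likelihood test. The shares of all tested genes were 12.9% and 12.8%, and the list median was 0.52. Within the list DESeq2 and limma-voom gave 0 lower, and 1 gene was lower at an unadjusted p under 0.05. The ubiquitin ligase gene mdm2 and cdkn1a, for the p21 cell cycle inhibitor, had log2 fold changes of 1.26 and 2.05. Whether ATM had a part in their rise was not tested. The third riser was tti2, from 7.62 to 16.3 CPM on average, for a cochaperone subunit that stabilises ATM and related kinases. The tti2 call was lost without mutant replicate 3, sibling replicate 1 or sibling replicate 3 (edgeR adjusted p = 0.109, 0.0654 and 0.113) and with total counts alone (0.0808), which left 2 risers in each case. Over the alternatives its adjusted p ran from 0.00866 to 0.113. Of 2 genes for the phosphatase that switches ATM signalling off, both annotated PPM1D, ENSDARG00000009273 had a log2 difference of 0.23 and ENSDARG00000021380 one of -0.56, and neither was called (named after their values were seen).

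**Figure D5:**
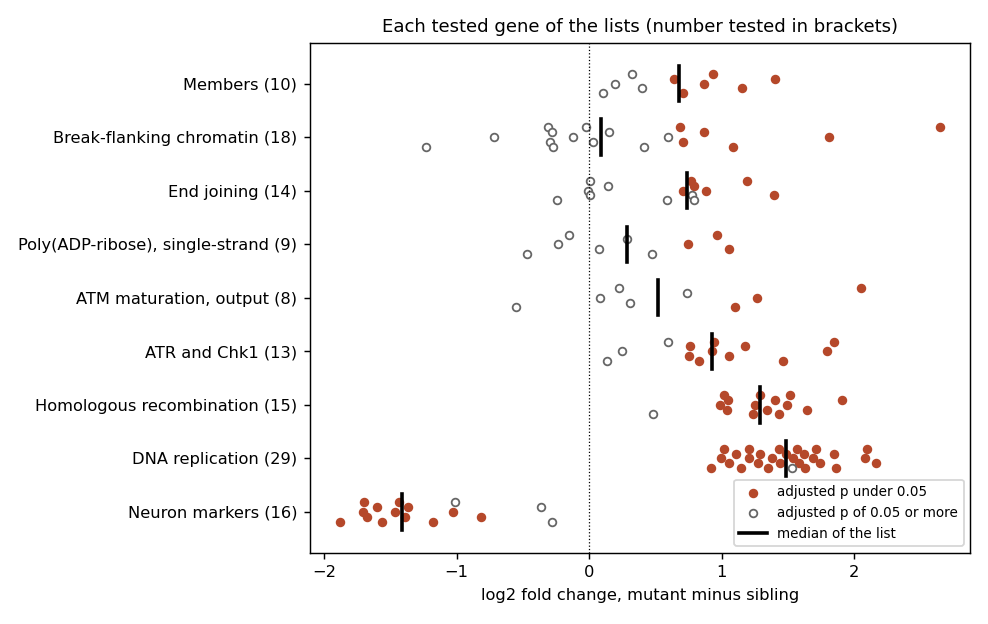
Log2 fold change, mutant minus sibling (horizontal axis), of each tested gene of 9 lists; filled points passed an edgeR adjusted p of 0.05 and black lines are list medians. Medians run from 0.09 for break-flanking chromatin over 0.67 for the members to 1.48 for DNA replication, and neuron markers lie below 0.

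The checkpoint and repair routes tied to replication had higher medians than the members. By the same test 12.9% of all tested genes were higher and 12.8% lower. Of 13 tested genes of the ATR and Chk1 checkpoint, which answers to stalled replication forks, 10 rose. The list had a median log2 fold change of 0.92. Its risers numbered 7 to 10 with a library left out and 6 with total counts alone. Homologous recombination had 14 risers of 15 and a median of 1.29. That count was 8 without sibling replicate 1, 9 without mutant replicate 3 or sibling replicate 2, and 7 with total counts alone. DNA replication had 28 risers of 29 and a median of 1.48, and 28 or 29 under every alternative. No gene of these 3 lists was lower by edgeR, DESeq2 or limma-voom (0), or at an unadjusted p under 0.05 (0). The kinase gene chek1 and the clamp gene hus1 rose by 1.80 and 1.85, dna2 and blm, for a nuclease and a helicase of end resection, by 1.44 and 1.64, and cdc6, for origin licensing, and tyms, for thymidylate synthesis, by 2.16 and 2.08 on the log2 scale. The lists were described by these counts and medians only, and the difference between them and the members was not tested. The lowest log2 fold change of the replication list, 0.92, was above that of 7 members, with rad50, mre11a and chek2 over it.

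Markers of neurons, photoreceptors and muscle were lower in mutants. For comparison, edgeR called 12.8% of all tested genes lower and 12.9% higher. Neuron markers had 13 of 16 tested genes lower and 0 higher by edgeR's quasi-likelihood test (0 higher by DESeq2, limma-voom or an unadjusted p under 0.05), and their sum was 937 to 1389 CPM in mutants and 2473 to 3042 CPM in siblings. All 17 had counts. Photoreceptor markers summed to 40.6 to 68.6 CPM in mutants and 668 to 844 CPM in siblings, with 7 of 8 lower, and muscle markers to 26.0 to 63.0 and 134 to 248 CPM, with 7 of 9 lower and 1 gene annotated TNNI2 without a count. Erythroid markers overlapped, at 275 to 1602 and 585 to 920 CPM, with 1 of 5 tested genes higher (hbae5, at 2 to 36 reads a library, named after its values were seen) and 0 lower by edgeR, DESeq2 or limma-voom, or at an unadjusted p under 0.05. The part of these shifts in the levels of the members was not tested.

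By Pearson's r of log2 CPM over the 6 libraries, the genes most like atm were cecr2, a chromatin remodelling factor gene (r = 0.996), DENND2D (0.995) and IBA57 (0.991), the top 3 of 13718 candidates. All 4 genes share the libraries and their depth, and r was chosen as the highest of many. Of these cecr2 rose, by 0.67 on the log2 scale, and DENND2D and IBA57 were not called (0.52 and 0.34). No member lies on the chromosome that carries slbp in the gene order of another zebrafish assembly, GRCz12tu.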

How the data were processed

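Raw counts of reads per Ensembl gene, 1 column per library, were deposited by the authors. HISAT2, featureCounts and the build GRCz11 are named per the submitters' processing notes. Their versions, the annotation release, the strand setting, the handling of multi-mapping reads and poly(A) selection are not given in the sources used. Antisense overlaps may therefore add reads to a gene. The table pairs no lengths with genes, so sums over genes, the share of parp1 and ratios of counts depend on transcript length. No test compared the level of one gene with that of another within a group. Symbols came from a reference table (29201 of 32520 genes), which writes some members in upper case.

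Counts were fitted in R 4.3.3 with edgeR 4.0.16: filterByExpr, TMM factors (0.788 to 1.14), robust quasi-likelihood test, two-sided, Benjamini-Hochberg over 15561 genes, threshold 0.05. The SE is the log2 fold change over the square root of F. In tests on simulated data over 15155 genes, 48% of 2-fold and 89% of 4-fold changes were recovered, with 8 of 145 calls false. Few genes were changed there and RNA composition was not shifted. In the data 2015 genes were called higher and 1989 lower, so these rates may not hold for it. Alternatives were other scaling, filters, DESeq2 1.42.0, limma-voom (limma 3.58.1), a replicate block and leaving out each library. Per library, 3 counts correspond to 0.519 to 0.776 CPM, for counting error only. No replicate pair agreed within sampling noise (chi-square per degree of freedom 6.76 to 19.6).

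Members and lists were chosen with earlier results of these data known. Of 184 list genes beside the members 170 were matched, and 1 further gene is not reported here. Named genes are the members, up to 4 risers and 4 fallers of lowest p in each break-repair list, h2ax, the 2 of lowest p in the ATR, recombination and replication lists, and the 3 most like atm; others are marked.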

Additional observations from a re-analysis of the deposited data

How the results depend on the processing

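The members called higher numbered 4 to 6 over all 16 alternatives and 4 to 5 with a library left out, and 0 were called lower in any. All genes called higher dropped from 2015 to 1095 under total-count scaling, which shifted the median gene to -0.26, and to 1089 at the stricter threshold of 0.01, which left 963 lower; leaving out a library gave 1363 to 1952 higher and 1158 to 1811 lower, the fewest lower without sibling replicate 1. Relative to that median, that scaling gave 0.18 for rnf8 and 0.09 for lig4, whose own estimates there were -0.080 and -0.18. With a library left out, the estimate of lig4 ran from -0.15 (without sibling replicate 2) to 0.26 (without sibling replicate 1). Of the 7 other repair and replication lists, 0 genes were called lower, but 1 was with upper-quartile factors, 4 with total counts alone, 1 with the replicate block and 0 to 1 with a library left out. Apart from the stricter threshold, the cause of these shifts was not tested. A fit without a library loses a sample and that library's own values together, which cannot be told apart. Of 33 named genes 27 were called, and 6 of them (atm, chek2, xrcc6, tdp1, tti2 and cecr2) lost the call with a library left out; 0 called genes reversed. A fit with the replicate block called 2491 genes higher, 2568 lower and the same 6 members. Pairing is not stated, and the residual correlation between mutant and sibling of 1 number was 0.24, 0.088 and 0.19, not above 0.1 throughout, although the best match of each library across groups was its own number. Counting error alone gives the siblings a CV of 15.6% for lig4 and 16.1% for chek2, where 31.9% and 59.3% were observed.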
